A study of Mus musculus with 3 samples.

Results

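Genes that mark macrophages and genes of MHC class II antigen presentation were followed in cultured mast cell progenitors (MCps) from WT and *p85α−/−* mice. They are 10 of the 27951 gene names tested on the arrays and were chosen by name, together with every array probe that carries the name or an older symbol: *Csf1r*, *Emr1*, *Cd68*, *Cd14* and *Mrc1* for macrophages, and *H2-Aa*, *H2-Ab1*, *H2-Eb1*, *Cd74* and *Ciita* for class II presentation. Together they have 17 of the 41157 probes tested, and *Ciita* was found under its older symbol C2ta. Mononuclear marrow cells of 3 WT and 3 *p85α−/−* mice had spent 7 days in culture with IL-3 at 10 ng/mL. Cells that carried both KIT and the IgE receptor were then sorted and kept with SCF at 100 ng/mL for 48 hours, so these 2 receptors were used to choose the cells. Few cells were sorted, so the cDNA was amplified by global PCR before 250 ng was labeled. Each of 3 Agilent arrays compared 1 WT culture in Cy3 with 1 *p85α−/−* culture in Cy5, which gives n = 3 per genotype. As the dyes were never swapped, dye and genotype cannot be told apart at any probe.

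Macrophages and mast cells both descend from myeloid progenitors of the marrow. Macrophages depend on signals through the CSF1 receptor and carry receptors for microbial products and sugars, whereas mast cells depend on KIT. In antigen-presenting cells, class II molecules are heterodimers of an α and a β chain that assemble with the invariant chain, display peptides to CD4 T cells, and are transcribed under control of the coactivator CIITA.

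On the 3 arrays the median WT spot signal was 76.1, 71.5 and 141.2 and the median *p85α−/−* signal 210.9, 517.3 and 206.6, over a median local background of 32.5 to 33.5 for WT and 51 for *p85α−/−*. Levels are given as normalized log2 intensities, and log2 ratios as *p85α−/−* minus WT on the same array. *Pik3r1*, the gene that encodes p85α, has 4 probes. The brightest had log2 ratios of 1.48, −0.03 and 0.33 on replicates 1 to 3, and the next −1.04, −0.31 and −0.38. After these came 0.19, 0.53 and 0.25, and the dimmest probe had −0.07, −0.30 and 0.25. The genotype of a channel cannot be read from these probes, so directions refer to the labels, *p85α−/−* against WT. As the paper reports, western blotting showed loss of p85α in *p85α−/−* BMMCs. For *Lin9*, *Rrm1*, *Cbx5* and *Taok3*, its PCR of MCps had the directions of its arrays, but the *Lin9* change by PCR was slight and far smaller than on its arrays. The PCR data it shows are technical replicates of a single biological sample, which it reports that biological replicates mainly bore out.

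At their brightest probes *Emr1* and *Csf1r* were lower in *p85α−/−* on each of the 3 arrays. No member was higher on all 3, and none passed the test. By limma, with p-values adjusted after Benjamini and Hochberg, 0 of the 17 member probes had an adjusted p under 0.05, against 0% of all probes (0 of 41157), and 0 of the 17 had an unadjusted p under 0.05, against 1829 of all probes. Past 1.5-fold with an unadjusted p under 0.05, 0 member probes were higher, against 2.78% of all probes, and 0 were lower, against 1.66%. By the methods' t-test, 1125 probes in all passed these criteria. The mean log2 ratio was above 0 at 7 of the 17 probes, against 44.8% of all probes. No member probe was higher in *p85α−/−* on all 3 arrays (12.5% of all probes) and 2 were lower on all 3 (13.3%). These shares lie near or below those of all probes. With each gene taken at its brightest probe, 4 genes had a mean above 0 and 6 below, with a median of −0.27. When quantile normalization was replaced by median centring of the log2 ratios of every array, 8 of the 10 were above 0 and the median was 0.35, so the balance of directions depended on the scaling. With dim probes left out, which takes away *Mrc1*, 3 of 9 were above 0 and the median was −0.33.

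**Figure D1:**
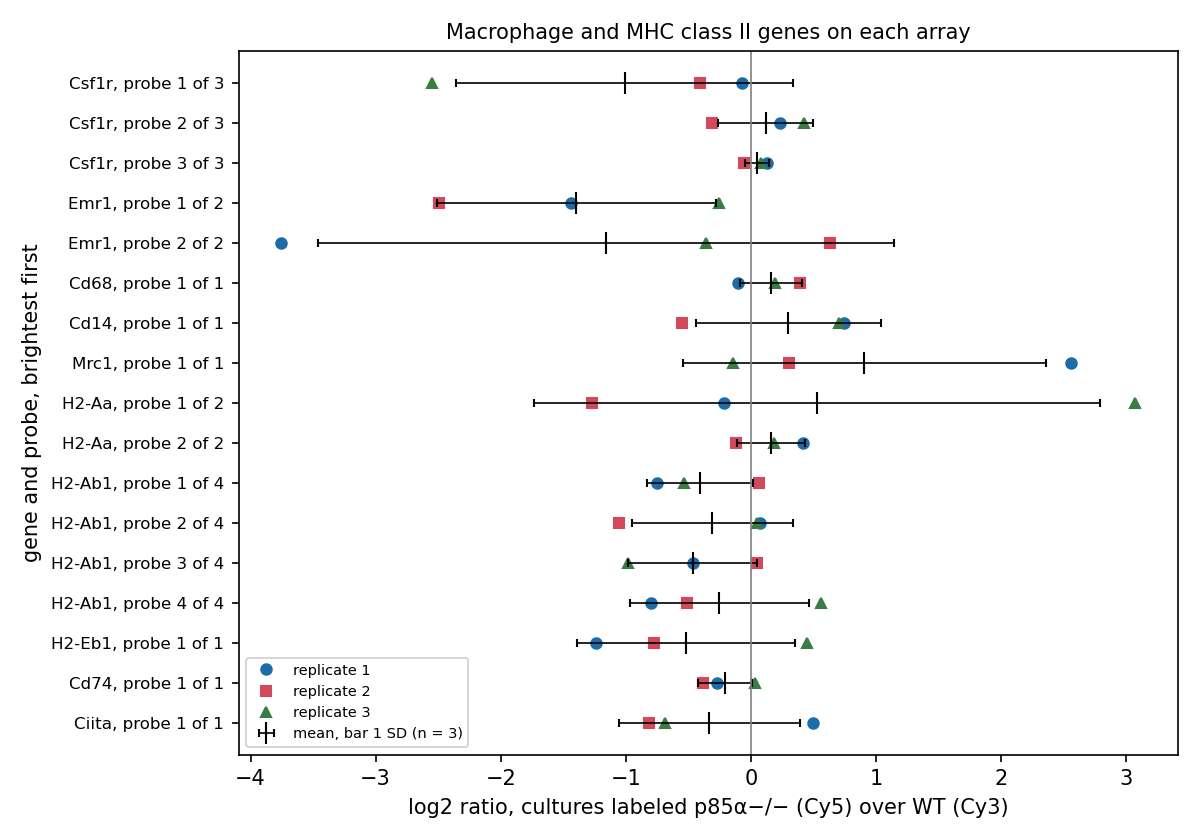
Log2 ratio of cultures labeled *p85α−/−* (Cy5) over WT (Cy3) at each of the 17 probes of the 10 genes (horizontal axis), with 1 symbol per replicate, a vertical tick for the mean and a bar of 1 SD (n = 3). At 16 of the 17 probes the mean is smaller than the SD, and the widest spreads come from single arrays, such as replicate 1 at the dimmer *Emr1* probe (−3.75) and replicate 3 at the brighter *H2-Aa* probe (3.07).

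*Csf1r* encodes the receptor for CSF1 and IL-34, the growth factors of macrophages. The WT levels at its brightest probe were 8.33, 8.47 and 10.90 on replicates 1 to 3, and the *p85α−/−* levels were 8.26, 8.07 and 8.35. Replicate 3 of WT stood above the other 5 values, which overlapped between the genotypes. The log2 ratios were −0.07, −0.40 and −2.55, which averaged −1.01 ± 1.35 (SD, n = 3; adjusted p of 0.908 by limma). Without replicate 3 the mean was −0.24, and with median centring −0.44. Its other probes went the opposite way, with means of 0.12 ± 0.38 and 0.05 ± 0.10, so the 3 probes gave no common direction. As these were bulk samples, fewer cells of a type and less RNA per cell cannot be told apart for any gene here.

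*Emr1*, known today as *Adgre1*, encodes an adhesion receptor used as a surface marker of mouse macrophages. At the brightest probe (chromosome 17, 55686649 to 55686708 in the array's annotation, which names no build), WT levels were 9.74, 11.13 and 9.03 and *p85α−/−* levels 8.30, 8.64 and 8.78. The 3 WT values lay above the 3 *p85α−/−* values, as the ranges of the genotypes did not overlap. This was the case for 1 of the 17 member probes and for 10.5% of all probes. The log2 ratios were −1.44, −2.49 and −0.26, averaging −1.39 ± 1.12 (SD, n = 3; adjusted p of 0.908 by limma). The mean was below 0 under all 12 alternative settings, from −1.96 to −0.82, and −0.85 without replicate 2. A second probe (chromosome 17, 55613754 to 55613813) had log2 ratios of −3.75, 0.63 and −0.36 and a mean of −1.16 ± 2.30. There, replicate 1 of WT (11.08) stood apart from the other WT values of 7.40 and 7.26.

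*Cd68* encodes a glycoprotein of the endosomes and lysosomes of macrophages. Its probe (chromosome 11, 69746386 to 69746445) gave WT levels of 7.94, 8.33 and 8.23 and *p85α−/−* levels of 7.84, 8.73 and 8.43. The genotypes overlapped, and the log2 ratios of −0.10, 0.39 and 0.19 averaged 0.16 ± 0.25 (adjusted p of 0.936 by limma). This average was 0.29 without replicate 1, 0.046 without replicate 2 and 0.55 with median centring. *Cd14* encodes the coreceptor that passes lipopolysaccharide to TLR4. WT levels at its probe were 9.32, 10.19 and 9.59, and *p85α−/−* levels were 10.07, 9.64 and 10.30. *p85α−/−* was higher on replicates 1 and 3 and lower on replicate 2, with log2 ratios of 0.75, −0.55 and 0.70. The mean of 0.30 ± 0.74 was smaller than the spread between arrays, with an adjusted p of 0.924 by limma. It was 0.077, 0.73 and 0.0996 without replicates 1, 2 and 3, and 1.08 with median centring.

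*Mrc1* encodes the mannose receptor CD206, a lectin of tissue macrophages. Its probe (chromosome 2, 14281098 to 14281158) was well above background on 0 of the 3 arrays in WT, where spot signals of 34.8, 37.3 and 37.3 stood beside local backgrounds of 34, 37 and 27. In *p85α−/−* the signals were 825, 149 and 56.0 over backgrounds of 50, 51 and 49.5, well above background on replicates 1 and 2. After loess and Aquantile normalization, the mean *p85α−/−* level over the 3 replicates was at least 1.38-fold that of WT. Of these replicates 2 measured the gene, and replicate 3 was not well above background, so the bound is no strict floor. It is open to dye bias, and none was computed without replicate 1 or under another scaling. The normalized log2 ratios, 2.56, 0.30 and −0.14, averaged 0.91 ± 1.45 (adjusted p of 0.908 by limma), but rest on a WT signal at background and are not a measured difference. This average was 0.080 without replicate 1, 0.34 with median centring, 0.50 with loess, and 2.29 and 2.83 with the software's processed signals and log ratio.

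The α chain of the class II molecule I-A is encoded by *H2-Aa*. At its brightest probe WT levels were 7.97, 8.79 and 7.24, and *p85α−/−* levels were 7.76, 7.53 and 10.31. The last of these stood apart from the other 5 values. Log2 ratios of −0.21, −1.27 and 3.07 averaged 0.53 ± 2.26 (SD, n = 3; adjusted p of 0.949 by limma), and without replicate 3 the mean was −0.74. Without replicate 1 it was 0.90, without replicate 2 it was 1.43, and with median centring 1.13. The second probe did not have the high value on replicate 3: its log2 ratios were 0.42, −0.12 and 0.19, with a mean of 0.16 ± 0.27.

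The partner of this chain, the I-A β chain, is encoded by *H2-Ab1*, which has 4 probes. The brightest (chromosome 17, 32345268 to 32345327) gave WT levels of 9.55, 9.71 and 10.35 and *p85α−/−* levels of 8.80, 9.77 and 9.81, which overlapped. Log2 ratios were −0.75, 0.07 and −0.54, with a mean of −0.41 ± 0.42 and an adjusted p of 0.908 by limma. This probe was spotted 10 times on each array, which shows how far spots of 1 hybridization agree. Over the 9 spots of replicate 1 without an outlier flag, the log2 ratio ran from −0.84 to −0.68 (SD 0.054). Over the 10 spots of replicate 2 it ran from −0.20 to 0.29 (SD 0.18), and over the 10 of replicate 3 from −0.73 to −0.35 (SD 0.10). The other 3 probes had means of −0.31 ± 0.64, −0.47 ± 0.52 and −0.25 ± 0.72. All 4 means of *H2-Ab1* were below 0, but no probe was below 0 on every array, and with median centring the brightest had a mean of 0.31. Its mean was −0.23 without replicate 1 and −0.64 without replicate 2.

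The β chain of the second class II molecule, I-E, is encoded by *H2-Eb1*. WT levels at its probe (chromosome 17, 32392430 to 32392891) were 9.62, 8.49 and 7.83, and *p85α−/−* levels were 8.38, 7.71 and 8.28. The genotypes overlapped, as WT was higher on replicates 1 and 2 and lower on replicate 3. The log2 ratios of −1.24, −0.77 and 0.45 averaged −0.52 ± 0.87 (adjusted p of 0.908 by limma), and 0.041 with median centring. Without replicate 1 the average was −0.16, and without replicate 3 it was −1.01. *Cd74* encodes the invariant chain, which guards the peptide groove of class II molecules until they reach the endosomes. Its WT levels were 9.27, 10.40 and 9.28 and its *p85α−/−* levels 9.00, 10.02 and 9.31. The WT and *p85α−/−* cultures of replicate 2 were both above the cultures of replicates 1 and 3. Of the 10 genes *Cd74* had the smallest spread of log2 ratios, with −0.27, −0.38 and 0.04 and a mean of −0.205 ± 0.22 (adjusted p of 0.920 by limma). With median centring this mean was 0.36, and without replicates 2 and 3 in turn it was −0.12 and −0.33.

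*Ciita* encodes the coactivator that switches on the class II genes and *Cd74*. At its probe (chromosome 16, 10203747 to 10203806) WT levels were 10.02, 9.25 and 9.78, and *p85α−/−* levels were 10.52, 8.44 and 9.10. *p85α−/−* was higher on replicate 1 and lower on replicates 2 and 3. Log2 ratios of 0.50, −0.81 and −0.68 gave a mean of −0.33 ± 0.72 and an adjusted p of 0.917 by limma, and median centring gave 0.53. No array could be left out without moving this mean by over 1.5 times, as it was −0.75, −0.091 and −0.16 without replicates 1, 2 and 3 in turn.

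The arrays differed in how the members fell. The median log2 ratio of the 10 genes was −0.16, −0.48 and −0.05 on replicates 1, 2 and 3, and 3, 3 and 5 of the genes were above 0. For 9 of the 10 genes the mean was smaller than the SD between arrays, *Emr1* being the exception. Except for *Mrc1*, the brightest probes (9 of 10) were well above background in both channels of every array. The summed normalized intensity of the 10 genes was 5599, 7776 and 6800 for WT and 5461, 4653 and 6122 for *p85α−/−*. Single genes set much of the differences between these sums. In log2 levels, *Csf1r* on replicate 3 was 10.90 in WT and 8.35 in *p85α−/−*, and *Emr1* on replicate 1 was 9.74 and 8.30. *H2-Aa* on replicate 3 went the other way, with 7.24 and 10.31. The sums therefore show no shared direction of the genes. Over the 6 channels, the patterns most like that of *Cd74* among 25562 probes well above background in all channels were those of TC1416253 (Pearson's r of 0.996), *Dzip1l* (0.991) and *Cryab* (0.988). For the brightest *Csf1r* probe they were those of a probe named by a sequence identifier alone (Pearson's r of 0.9995), *Arhgap1* (0.9991) and *Olfr576* (0.999). Over r of 0.9 were 355 other gene names for *Cd74* and 947 for *Csf1r*, each name counted once at its most alike probe. These are descriptions over 6 channels that share 3 arrays, and for *Csf1r* the single high WT value of replicate 3 stands apart from the rest.

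Class II genes share promoter elements, the X and Y boxes, that bind RFX and NF-Y and recruit CIITA, so their promoters are shown beside the levels. RefSeq promoters (GRCm38.p6, 250 bases before to 50 after the gene start) were matched for 4 of the 10 members, *H2-Aa*, *H2-Eb1*, *Cd68* and *Mrc1*. The letters searched on both strands were CCAAT (the Y box core), CCTAGCAA (an X box core), TAGCAAC (a shorter X box form that overlaps it), GAGGAAGT (a PU.1 core) and TTCNNNGAA (GAS letters). Of 32851 promoters in the table, 37.4% hold CCAAT, 1.36% CCTAGCAA, 3.66% TAGCAAC, 3.2% GAGGAAGT and 8.3% TTCNNNGAA. All 4 matched members hold CCAAT, and *H2-Eb1* and *Cd68* hold TAGCAAC, whereas CCTAGCAA, GAGGAAGT and TTCNNNGAA are in none of the 4 windows. The 120 bases before the start of *H2-Aa* (chr17:34287824-34287943, minus strand) and *H2-Eb1* (chr17:34305747-34305866, plus strand) are given with CCAAT or its reverse complement and TAGCAAC in capitals.
H2-Aa: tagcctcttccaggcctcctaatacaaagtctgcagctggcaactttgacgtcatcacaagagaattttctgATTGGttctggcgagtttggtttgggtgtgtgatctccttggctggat
H2-Eb1: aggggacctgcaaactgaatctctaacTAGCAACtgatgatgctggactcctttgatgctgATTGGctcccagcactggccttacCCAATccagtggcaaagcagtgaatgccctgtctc
A match describes letters and is neither a site nor a cause, and the log2 ratios of both genes had wide spreads between arrays.

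Other macrophage genes were examined from a list of 38 names, of which 33 were measured. The mean log2 ratio was above 0 for 19 and below 0 for 14, with a median of 0.10. On all 3 arrays 3 were higher and 4 lower, against 11.8% and 14.2% of all gene names. Without replicate 3, 12 were above 0 and the median was −0.092, and with median centring these were 23 and 0.43. Past 1.5-fold with an unadjusted p under 0.05 were 1 gene that was higher and 1 that was lower, against 5.21% of all gene names, a share near that of the list, and 0 had an adjusted p under 0.05. The first was *Vsig4*, a complement receptor of tissue macrophages, with log2 ratios of 4.51, 0.47 and 2.81 and a mean of 2.60 ± 2.03. The second was *Siglec1*, a sialic acid receptor of macrophages, with −0.88, −0.52 and −0.999 and a mean of −0.80 ± 0.25. Both had an adjusted p of 0.908 by limma. For *Siglec1* the mean was −0.090 with median centring and −0.33 over its 2 probes, both short of 1.5-fold. For *Vsig4* it was 1.64 without replicate 1. The genes with the brightest probes were *Csf2ra*, the α chain of the GM-CSF receptor (0.12 ± 1.18), *Marco*, a scavenger receptor (−0.23 ± 1.25), and the transcription factor *Maf* (−0.55 ± 0.29). Over the 12 alternative settings these means ran from −0.50 to 1.34, from −0.80 to 0.84 and from −0.72 to 0.42. *Cd163* and *Mmp12* were not well above background in either genotype on any array. The summed normalized intensity of the 33 genes was 24377, 26655 and 24807 for WT and 24681, 38028 and 32173 for *p85α−/−*. Without *Csf2ra* it was 20187, 23200 and 16993 for WT and 20505, 29197 and 28233 for *p85α−/−*. Single genes set much of these differences, in log2 levels of WT and *p85α−/−*: *Vsig4* on replicate 1 (8.12, 12.64), *Lgals3* on replicate 2 (9.84, 12.83) and *Tyrobp* on replicate 3 (7.98, 12.54). *Marco* on replicate 1 (12.43, 10.85) and *Lbp* on replicate 2 (11.87, 7.67) went the other way.

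Of 27 further genes of class II presentation, such as the H2-DM peptide editors, the RFX and NF-Y subunits and lysosomal proteases, 26 were measured. Their mean log2 ratio was above 0 for 11 and below 0 for 15, with a median of −0.14, and with median centring it was above 0 for 20, with a median of 0.45. Without replicates 1, 2 and 3 in turn the median was −0.067, 0.014 and −0.0015, with 11, 13 and 13 genes above 0. On all 3 arrays, 3 were higher and 1 was lower, against 11.8% and 14.2% of all gene names. Of the 26 genes 0 passed 1.5-fold with an unadjusted p under 0.05, against 5.21% of all gene names. The brightest probes were those of *Rfxap*, a subunit of RFX (−0.89 ± 1.17), *Irf1*, an interferon-induced transcription factor (−1.60 ± 1.58), and *Ifi30*, a lysosomal thiol reductase (−0.091 ± 2.12). None kept its size over the 12 alternative settings, where *Rfxap* ran from −1.50 to 0.48, *Irf1* from −2.48 to 0.47 (its mean over all probes) and *Ifi30* from −1.28 to 0.84. The summed intensity of the 26 genes was 38817, 35332 and 50225 for WT and 27246, 34181 and 29856 for *p85α−/−*. *Rfxap*, whose mean was 0.48 with median centring, set much of these sums. Without it they were 22411, 20762 and 18968 for WT and 19094, 15730 and 22003 for *p85α−/−*, higher in *p85α−/−* on replicate 3.

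Markers of other cells that present antigen were set beside the members. Of 13 dendritic cell markers 10 were measured, of which 1 had a mean above 0 and 9 below, with a median of −0.12. With median centring 4 were above 0 (median −0.27) and with loess 5 (median −0.06). With dim probes left out 0 of 6 were above 0 (median −0.215). The balance rested on replicate 2, without which 6 were above 0 with a median of 0.071, and without replicate 3 there were 0. *Xcr1* (−0.05 ± 0.60), *Flt3* (−0.22 ± 0.60) and *Ly75* (−0.21 ± 0.61) had the brightest probes, with ranges over the alternative settings from −0.40 to 0.64, −0.51 to 0.22 and −0.54 to 0.11. *Clec9a* and *Siglech* had a WT signal well above background on 0 of the 3 arrays. Of the 9 B cell markers analysed here, all measured, 5 were above and 4 below 0 with a median of 0.01, and 7 were above 0 with median centring but 3 without replicate 3. Their brightest probes were those of *Igll1*, a surrogate light chain (0.25 ± 0.33), *Cd22*, an inhibitory receptor (0.01 ± 0.48), and the transcription factor *Pax5* (−0.74 ± 0.61). These ran from 0.078 to 0.93, from −0.26 to 0.69 and from −1.10 to −0.11 over the alternative settings. Neither list had a gene past 1.5-fold with an unadjusted p under 0.05, against 5.21% of all gene names. The summed intensities of the dendritic cell markers were 2589, 2850 and 2576 for WT and 2474, 2032 and 2221 for *p85α−/−*, and those of the B cell markers 4293, 5206 and 4403 for WT and 3990, 4922 and 4629 for *p85α−/−*. Their part in the values of the members was not tested.

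**Figure D2:**
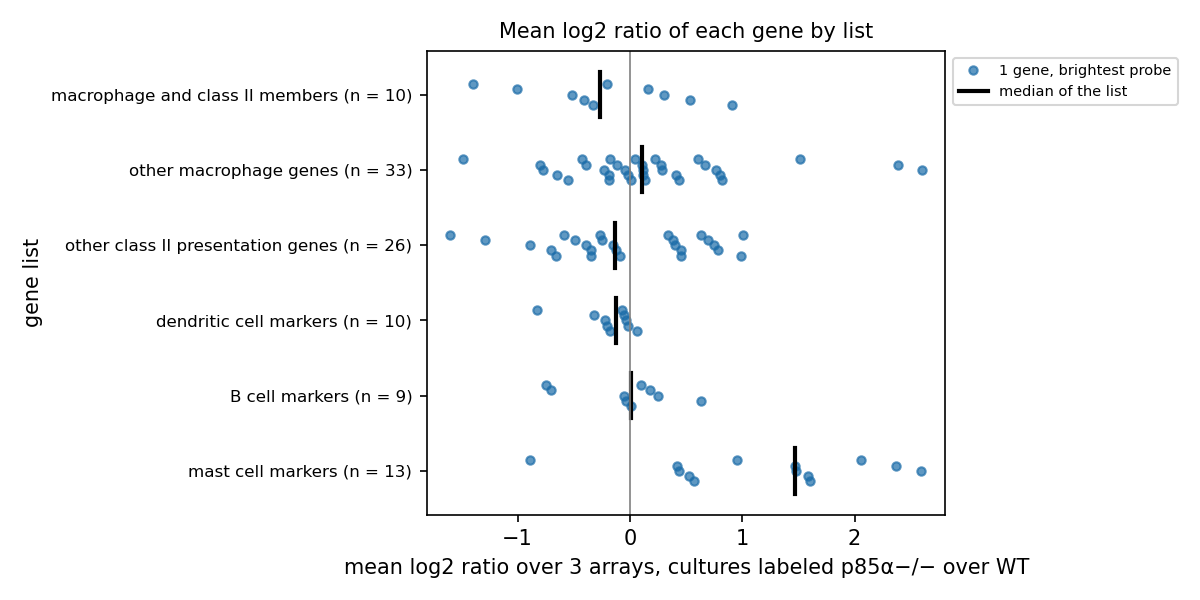
Mean log2 ratio over 3 arrays of cultures labeled *p85α−/−* over WT (horizontal axis) for each gene of the 6 lists (1 point per gene, brightest probe), with the median of each list as a vertical line. The members centre on −0.27 (0.35 with median centring) and the mast cell markers on 1.47 (2.07 with median centring). The spread of single genes differs between lists, from −1.49 to 2.60 for the other macrophage genes but −0.83 to 0.06 for the dendritic cell markers. The 1.47 is the value of *Ms4a2*, whose WT signal was well above background on 1 array.

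The label of the cells was checked with 16 mast cell marker names, of which 13 were measured. All 13 were well above background in *p85α−/−* on every array and 12 of them in WT, *Ms4a2* being well above it in WT on 1 array. On average 12 of the 13 were above 0, and 7 were higher in *p85α−/−* on all 3 arrays, against 11.8% of all gene names. The median of 1.47 was 0.89 without replicate 2 or replicate 3 and 2.07 with median centring. It is the value of *Ms4a2*, and over the 12 genes well above background in both genotypes on every array the median was 1.22, with 11 above 0. Over the 12 alternative settings between 10 and 13 were above 0. The summed intensity was 40952, 27911 and 45101 for WT and 170271, 121969 and 85545 for *p85α−/−*, and *Cma1*, a chymase, had the brightest probe. Without *Cma1* the sums were 31570, 23175 and 20460 for WT and 67494, 74912 and 54289 for *p85α−/−*. Past 1.5-fold with an unadjusted p under 0.05 were 4 of the 13 genes, all higher, while 0 had an adjusted p under 0.05. Of all 27951 gene names, 877 passed as higher and 580 as lower, 5.21% in both directions together. They were *Il1rl1*, the IL-33 receptor (2.59 ± 1.18), *Cma1* (2.37 ± 1.76), *Kit*, the SCF receptor used in the sort (adjusted p of 0.784 by limma; 2.06 ± 0.56), and *Prg1*, the proteoglycan serglycin (1.48 ± 0.60). Over the alternative settings they ran from 1.68 to 3.67, 1.83 to 3.64, 1.82 to 3.03 and 1.30 to 2.74. Lower in *p85α−/−* on average was *Mcpt4*, another chymase (−0.89 ± 2.38, and 0.27 with median centring). Its mean was −2.26, −0.28 and −0.13 without replicates 1, 2 and 3. Means of the remaining genes were 0.42 ± 0.73 for *Tpsab1*, 0.43 ± 0.66 for *Slc18a2*, 0.53 ± 1.30 for *Mitf*, 0.57 ± 3.24 for *Fcer1a*, the IgE receptor chain that binds the antibody, 0.96 ± 3.08 for *Hdc*, 1.47 ± 1.66 for *Ms4a2*, 1.59 ± 2.42 for *Cpa3* and 1.60 ± 1.26 for *Gata2*. The *Ms4a2* mean is not a measured difference, as WT was well above background on 1 array. Single arrays set several of these means. Without replicate 2 the mean was 0.20 for *Cpa3*, 0.52 for *Ms4a2*, 0.064 for *Slc18a2* and −0.80 for *Fcer1a*. Without replicate 1 it was 0.013 for *Tpsab1*, and without replicate 3 it was 0.89 for *Gata2*, −0.74 for *Hdc* and −0.22 for *Mitf*. As a list the mast cell markers were not tested, and neither was their part in the values of the macrophage and class II genes.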

How the data were processed

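The 3 arrays with both dyes were analysed. The authors deposited spot intensity values from Agilent Feature Extraction 9.5.1.1 (mean signal and local background, without normalization, and processed signals corrected for background and dye), its log10 ratio of red over green, and other columns of flags for outlier spots, saturation (0 spots) and spots well above background. They also deposited a table of log10 ratios; for replicate 1 it equals the scanner's ratio on all 40929 probes with 1 spot (tolerance 1.5e-05), for replicates 2 and 3 on 190 and 226, with column medians of 0, 0.0245 and −0.00306, so it served only for this check.

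Signals were background-corrected (normexp, offset 50), the 6 channels quantile normalized on the log2 scale, and control and outlier spots left out (limma 3.58.1, R 4.3.3). Spots of a probe were averaged. The log2 ratio was tested with limma (intercept only, which pairs cultures by array) on 41157 of 41174 probes, with Benjamini-Hochberg adjustment over all of them; the procedure was tested on simulated data. Only 3 arrays limit the precision. Positions of probes come from the annotation of the array, which names no build.

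Named genes are all 10 members with every probe; from each of the 5 other lists, genes past 1.5-fold with an unadjusted p under 0.05 and the same sign on all 3 arrays and the 3 with the brightest probes; and all mast cell markers. *Cd163*, *Mmp12*, *Clec9a* and *Siglech* were singled out after their values were seen. A marker on the B cell list was not analysed here. The members and lists were chosen with earlier results of these data known. Alternatives were loess with Aquantile, median centring, raw signals without subtraction of background, the processed signals or log ratio of the scanner software, outlier spots kept, dim probes left out, no pairing by array, the methods' t-test, each replicate left out, and a gene's probes averaged.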

Additional observations from a re-analysis of the deposited data

How the results depend on the processing

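Under the 12 alternatives run across all probes, 0 had an adjusted p under 0.05, by limma or the methods' t-test; a gene's probes averaged gave values with no test. Past 1.5-fold with an unadjusted p under 0.05 were 1829 probes, 1125 by the methods' t-test, and 1557 to 3165 when a replicate was dropped (3165 without replicate 2, with 47.5% of them higher in place of 62.6%). With median centring 91.1% of 2692 such probes were higher. Limma without the pairing by array, that is with no replicate block, gave 1809 and changed no call of a member. Of the members, 4 were above 0; 3 to 4 were with 1 replicate left out, and 8 with median centring, where their median of −0.27 became 0.35 and that of all probes moved from −0.05 to 0.090. With 1 replicate left out the members' median ran from −0.28 to −0.10. Mrc1 has no value with dim probes left out.

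Signs changed with median centring for Cd74 (0.36), Ciita (0.53), H2-Ab1 (0.31), H2-Eb1 (0.041), Flt3 (0.22), Ly75 (0.11), Xcr1 (0.64), Mcpt4 (0.27), Ifi30 (0.84), Rfxap (0.48), Maf (0.42) and Marco (0.84); with loess for Xcr1 (0.076) and Ifi30 (0.017); with the software's processed signals (−0.011) and log ratio (−0.030) for Cd22; and over all probes of a gene for Mitf (−0.047) and Irf1 (0.47). With 1 replicate left out, ranges that cross 0 were H2-Aa −0.74 to 1.43, Xcr1 −0.40 to 0.16, Ifi30 −1.28 to 0.76, Marco −0.80 to 0.44, Flt3 −0.51 to 0.090, Ly75 −0.54 to 0.053, Fcer1a −0.80 to 2.36, Csf2ra −0.50 to 0.67, Cd22 −0.26 to 0.19, Hdc −0.74 to 2.27 and Mitf −0.22 to 0.91. The cause was not tested. The lists were run under these alternatives after seeing the data. Signal over background limits what dim probes such as that of Mrc1 can show.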
